A study of Mus musculus with 8 samples.

Results

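The Malat1-rich barcodes were 198 of the 17426 droplet barcodes deposited for mouse islets. They were chosen by their UMI counts and *Malat1* share, which are measured values: they had at least 200 genes, 500 to 3000 UMIs (unique molecular identifiers, which count captured RNA molecules), at most 10% of UMIs from mitochondrial genes and at least 5% of UMIs from *Malat1*. Single-cell RNA libraries were made from isolated islets of adult male C57BL/6 mice (C57BL6/J in the study's methods), for which the sources used here name no engineered allele. In each of 2 replicates, pooled islets were divided over 4 conditions and kept in culture for 18 h. Islets were untreated, exposed to cytokines (IFN-γ at 150 U/mL and IL-1β at 10 U/mL), exposed to the same cytokines plus 2 mM NMMA, an inhibitor of nitric oxide synthase, or exposed to 2 mM NMMA alone. All islets were cultured whole and dissociated before capture, and animals cannot be told apart within a pool. Of the 17426 barcodes, 12331 passed the gene and mitochondrial limits, 2492 of these had 500 to 3000 UMIs, and 198 of those met the *Malat1* limit. For comparison, the same libraries gave the 2294 low-*Malat1* barcodes, which had the same UMI range and less than 5% *Malat1*, and 7559 β-cells, which had at least 5000 UMIs with at least 10% of UMIs from *Ins1* and *Ins2*.

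*Malat1* is a long noncoding RNA of nuclear speckles and is retained in the nucleus almost entirely. *Neat1* is the scaffold of paraspeckles, *Meg3*, *Rian* and *Mirg* are transcribed from the maternal allele of an imprinted domain, and *Kcnq1ot1* is an unspliced antisense RNA that silences neighbouring imprinted genes in cis. Some mRNAs also stay in the nucleus, often because introns are spliced slowly, as is known for splicing regulators such as *Clk1* and for *Mlxipl*. mRNAs of ribosomal proteins, hormones and secretory granules are by contrast abundant in the cytoplasm of endocrine cells.

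The 3′ kit primes with oligo-dT, which pairs with runs of adenines, so the longest run of A in the annotated transcript was read from the reference for 4 RNAs that were high in these barcodes (GRCm38, GENCODE M21, transcript strand, with 20 bases on each side). Capitals mark the run.
Malat1: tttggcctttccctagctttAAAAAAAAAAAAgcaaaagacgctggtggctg
Kcnq1ot1: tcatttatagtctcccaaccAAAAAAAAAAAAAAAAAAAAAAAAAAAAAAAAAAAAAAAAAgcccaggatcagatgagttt
Neat1: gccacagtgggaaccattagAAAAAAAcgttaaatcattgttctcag
Gm26917: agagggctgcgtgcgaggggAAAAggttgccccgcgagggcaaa
The run of *Malat1* (chr19:5795690-5802672, minus strand, a lincRNA of 1 exon) had 12 adenines and ended 298 bases before the annotated 3′ end, and 5.60% of annotated genes held a run as long. *Kcnq1ot1* (chr7:143203458-143296549, minus strand, 1 exon) held 41 adenines, a length found in 0.0252% of genes. *Neat1* (chr19:5824708-5845478, minus strand, 1 exon) held only 7, and *Gm26917* (chr17:39843013-39846341, plus strand, 1 exon) only 4, a length reached by 87.3% of genes. Long runs were thus present in some of these RNAs and absent from others, and where in a transcript the reads fell was not analysed here.

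*Malat1* chose the barcodes, so its share is a description. It took 13.4% of UMIs at the median of the 198 barcodes (range 5.06 to 36.9%), 0.867% at the median of β-cells and 0.349% in low-*Malat1* barcodes. Over all barcodes of the UMI range, 2066 had less than 1% *Malat1*, numbers fell to 17 barcodes at 4 to 5% and 8 at 5 to 6%. Per percentage point there were then 11 barcodes at 6 to 8%, 14.5 at 8 to 10%, 12.4 at 10 to 15% and 7 at 15 to 20%. The rise above the limit came from replicate 1, which had 1 barcode at 5 to 6% and 43 at 10 to 15%. Replicate 2 had 7 and 19 in the same bins, the second of which is wider, and its number per percentage point did not rise above the limit. The 5 barcodes just outside the limit had 4.78 to 4.91% and the 5 just inside 5.06 to 5.50%.

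**Figure D1:**
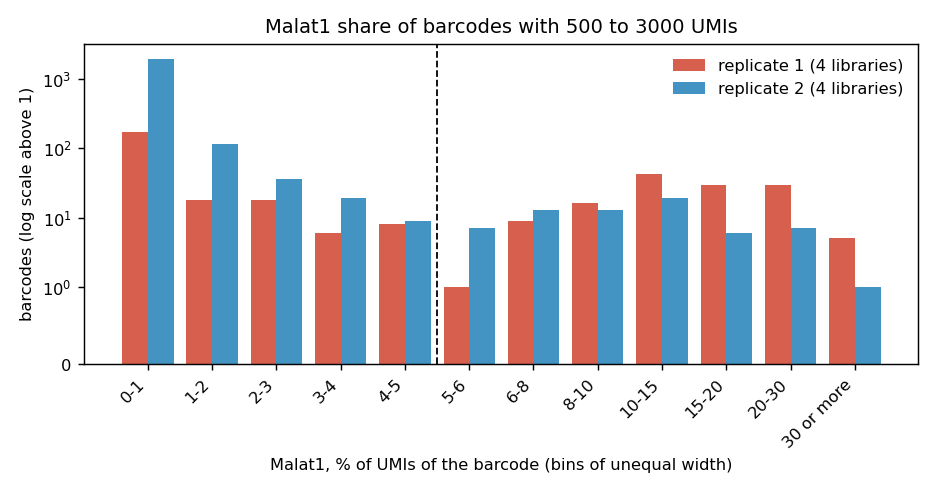
Number of barcodes with 500 to 3000 UMIs (y axis, linear to 1 and logarithmic above) by *Malat1* share of their UMIs (x axis, %, bins of unequal width), with 4 libraries summed per replicate and the limit of 5% as a dashed line. Replicate 1 has 1 barcode in the bin just above the limit and more in the bins that follow, up to 43, and replicate 2 holds most of the barcodes with less than 1% *Malat1*.

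Each library held 12 to 56 Malat1-rich barcodes. In replicate 1 there were 18 in untreated islets, 28 after cytokines, 30 after both agents and 56 after NMMA alone. In replicate 2 there were 22, 14, 12 and 18 in the same order. They were 23.7 to 44.4% of the barcodes of the UMI range in replicate 1 and 2.25 to 4.36% in replicate 2, which held many more low-*Malat1* barcodes (307 to 850 per library, against 41 to 70). The replicates thus differed in what surrounds these barcodes, and the cause was not tested. The barcodes had a median of 918.5 UMIs and 537 genes. When each barcode was thinned to 500 UMIs, the median per library was 294 to 353.5 genes, against 227 to 265 in β-cells and 252 to 309.5 in low-*Malat1* barcodes. Few RNA molecules were therefore spread over more genes than in either other class. Of 17392 distinct barcode sequences, 34 occurred in more than 1 library, and 1 of the Malat1-rich barcodes had such a sequence.

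The label of these barcodes names no cell type, so the hormones and the markers of other islet cells were counted. All 198 barcodes held insulin UMIs, and insulin was the leading hormone in 189, glucagon in 8 and the pancreatic polypeptide pair *Ppy* and *Pyy* in 1. Insulin was also present in low-*Malat1* barcodes, with a median share per library of 2.13 to 4.28% in replicate 1 and 23.8 to 29.0% in replicate 2, so a UMI of insulin did not distinguish the class. It made up 4.87% of UMIs at the median, against 36.5% in β-cells, and 46 of 198 barcodes reached the 10% that was asked of β-cells. Barcodes with at least 3 UMIs of a marker list numbered 8 for ductal, 3 for mesenchymal, 2 for endothelial, 2 for macrophage and 1 for acinar markers, and none for Schwann or erythroid cells. The summed level of the endothelial list was 0 to 0.192% of UMIs per library, of the macrophage list 0 to 0.0878%, of the mesenchymal list 0 to 0.104% and of the ductal list 0.0419 to 0.114%. In β-cells these lists reached at most 0.00134, 0.0184, 0.00961 and 0.107%. Of the 6 mesenchymal markers *Col1a1*, *Col1a2* and *Col3a1* were at 0, whereas *Sparc* had a mean of 169 CPM against 4.74 CPM in β-cells, *Pdgfrb* 33.0 against 0.803 and *Acta2* 7.91 against 0.846. All 4 hemoglobin genes were at 0. The part of other cell types in the results was not tested.

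*Meg3* and *Neat1*, the other markers of the class, were far above β-cells in every library. Levels are given as CPM, UMI counts scaled to the total of UMIs other than *Malat1* that was summed over the barcodes of a class in a library. Ratios were taken within a library after 50 CPM was added to both classes, and are medians over 8 libraries. In 4284 genes with a mean of at least 50 CPM in the class where they were higher, 516 (12.04%) were higher in all 8 libraries and 229 (5.35%) were lower in all 8, with a median log2 ratio of 0.52. The rule set UMIs, insulin and *Malat1* of the same barcodes, so these ratios carry no test.

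*Meg3* had 11057 CPM in untreated, 9382 in cytokine-treated, 9824 in cytokine and NMMA-treated and 12082 in NMMA-treated islets of replicate 1. In replicate 2 the levels were 4851, 3989, 4678 and 3774 CPM in the same order. β-cells had 603 to 1001 CPM, and the ranges did not overlap, with a log2 ratio of 3.17 (2.04 to 3.69 over libraries). Replicate 1 was higher than replicate 2 in all 4 conditions. *Neat1* had 3487, 6782, 8638 and 7408 CPM in replicate 1 and 3123, 4812, 4054 and 2516 CPM in replicate 2, against 380 to 663 CPM in β-cells, a log2 ratio of 2.99 (1.98 to 3.66). Both RNAs were also higher than in low-*Malat1* barcodes of the same UMI range (median 696 UMIs), by 4.24 for *Meg3* and 3.91 for *Neat1* on the log2 scale. A difference was thus also present within this UMI range.

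*Kcnq1ot1* followed, with 659 to 2796 CPM against 128 to 302 CPM in β-cells and a log2 ratio of 2.45 (1.18 to 3.12). *Mirg*, a host of microRNAs in the *Meg3* domain (chr12:109729764-109749460), had 595, 113, 339 and 408 CPM in replicate 1 and 55.8, 0, 312 and 59.9 CPM in replicate 2, against 5.65 to 25.1 CPM in β-cells. It was higher in 7 of 8 libraries, with a log2 ratio of 1.97. In untreated and in NMMA-treated islets of replicate 2 the level was that of 1 UMI (55.8 and 59.9 CPM). There 1 UMI was enough to lie above β-cells. A level of 0 in cytokine-treated islets of replicate 2 lay where 1 UMI equalled 63.3 CPM. *Rian*, between *Meg3* and *Mirg* on the chromosome (chr12:109603940-109661716), was listed for replicate 2 only. Its level was 773 CPM in untreated, 503 with cytokines, 309 with both agents and 238 with NMMA, against 60.6 to 126 CPM in β-cells. These came from 3 to 14 UMIs per library. The 3 neighbours of this imprinted domain were thus each higher than in β-cells, *Mirg* with 1 exception and from few UMIs in replicate 2.

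Of the 16 nuclear long noncoding RNAs listed, 6 other than *Malat1* had a mean of at least 50 CPM in the class where they were higher. Their median log2 ratio was 2.21 against β-cells and 2.72 against low-*Malat1* barcodes, where all genes had 0.52 and 0.50. *Mirg*, *Snhg11* and *Tug1* passed this limit only through the Malat1-rich class, with means of 18.4, 18.2 and 31.0 CPM in β-cells. The limit thus favours high ratios among rare RNAs, and the medians describe the list without weighing it. *Snhg11* had a ratio of 1.21 and *Tug1* of 0.79, with 5 and 7 of 8 libraries higher and no UMI in the class in 3 and 1 of them. *Peg13*, *Snhg14* and *Firre*, listed in replicate 2 only, had 0 to 2 UMIs per library, and *Miat* had none in the 198 barcodes. The summed level of the nuclear RNAs also rose with the *Malat1* share. Together the list other than *Malat1* took 0.0434% of the UMIs other than *Malat1* in barcodes with less than 1% *Malat1*, 0.164% at 1 to 3%, 0.383% at 3 to 5%, 1.06% at 5 to 10%, 1.81% at 10 to 20% and 2.26% at 20% or more. The rise held in each replicate, from 1.55 to 2.48% in replicate 1 and from 0.692 to 1.23% in replicate 2 between the 5 to 10% bin and the highest bin. Single RNAs did not all rise at each step. From the 10 to 20% bin to the highest bin, *Kcnq1ot1* fell from 0.219 to 0.188% over both replicates. *Meg3* rose from 0.901 to 1.21% over both replicates but fell from 0.582 to 0.426% in replicate 2. The bins held 42 to 2066 barcodes in all, and the highest bin held 8 in replicate 2.

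**Figure D2:**
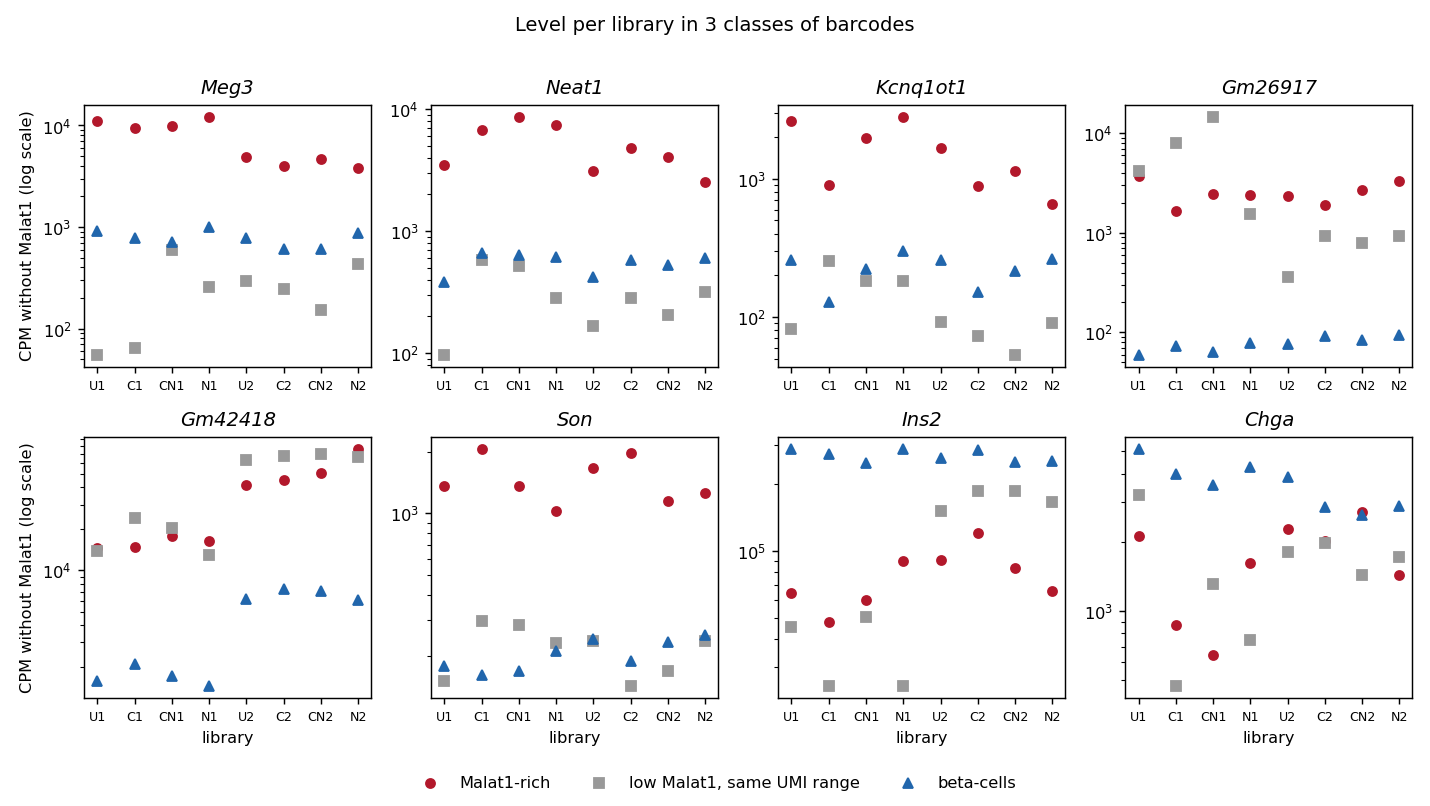
Level of 8 genes (y axes, CPM without *Malat1*, log scale) in Malat1-rich barcodes (red circles), low-*Malat1* barcodes of the same UMI range (grey squares) and β-cells (blue triangles) of the 8 libraries (x axis; U untreated, C cytokines, CN cytokines with NMMA, N NMMA, with the replicate number; a level of 0 is not drawn). *Meg3*, *Neat1*, *Kcnq1ot1* and *Son* of Malat1-rich barcodes lie above both other classes in all 8 libraries, while *Gm42418* is close to low-*Malat1* barcodes.

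Counted per barcode, the separation was similar. At 500 UMIs per barcode, *Meg3* was found in 82.8% of Malat1-rich barcodes (95% exact binomial interval 76.8 to 87.8%), 31.7% of β-cells and 7.89% of low-*Malat1* barcodes. *Neat1* was found in 73.7, 22.0 and 8.54%, and *Kcnq1ot1* in 51.0, 10.1 and 2.92% in the same order. Without thinning, *Meg3* was found in 90.4% and *Neat1* in 84.3% of Malat1-rich barcodes. Pooled over libraries, low-*Malat1* barcodes, thinned to the same number of UMIs, thus held these RNAs least often. With cytokines in replicate 1, however, *Kcnq1ot1* was found in 7.32% of them and 5.74% of β-cells. Over single libraries *Meg3* was found in 61.1 to 96.7% of Malat1-rich barcodes, 23.9 to 36.9% of β-cells and 2.44 to 14% of low-*Malat1* barcodes. Intervals cover counting error only, and barcodes of a library are not replicates.

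Transcripts annotated over ribosomal RNA-like sequence were higher than in β-cells but not particular to the class. *Gm26917* had 3742, 1658, 2439 and 2388 CPM in replicate 1 and 2342, 1899, 2703 and 3294 CPM in replicate 2, against 59.2 to 95.1 CPM in β-cells. Its log2 ratio of 4.30 (3.77 to 5.12) was the highest among genes with the same sign in all libraries. In low-*Malat1* barcodes it ranged from 360 to 14585 CPM, and the ratio against them was 0.79 with 5 of 8 libraries higher. These sums had different sources: 151 of 198 Malat1-rich barcodes (76.3%) held the transcript and 5 had 1% or more of their UMIs in it, whereas only 180 of 2294 low-*Malat1* barcodes (7.85%) held it and 46 had 1% or more. It was thus spread over most Malat1-rich barcodes and concentrated in few of the others.

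*Gm42418* (chr17:39846958-39848788) overlaps *AY036118* on the opposite strand (chr17:39847113-39848035), so their reads may not be separable. *Gm42418* had 14460 to 17852 CPM in replicate 1 and 41708 to 76610 CPM in replicate 2, against 1432 to 7307 CPM in β-cells, a log2 ratio of 3.0, but it was 0.32 lower on the log2 scale than in low-*Malat1* barcodes. *AY036118* (3.14) and *Lars2*, which contains similar sequence, did the same, at -0.43 and -0.80 against low-*Malat1* barcodes. The 4 transcripts of this list were higher than in β-cells in all 8 libraries, and none was in all 8 when low-*Malat1* barcodes took the place of β-cells (median 3.07 and -0.37).

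mRNAs known to be held in the nucleus or to keep introns were next. Of 20 listed, 19 were measurable and 16 were higher than in β-cells in all 8 libraries, with a median log2 ratio of 2.01, and none was lower in all 8. *Clk4*, *Ogt* and *Mat2a* passed the limit of 50 CPM only through the Malat1-rich class, with means of 31.9, 40.9 and 47.1 CPM in β-cells. Against low-*Malat1* barcodes the median was 1.92, with 15 higher in all 8. *Son*, a large scaffold of nuclear speckles, had 1361, 2072, 1355 and 1020 CPM in replicate 1 and 1673, 1963, 1143 and 1258 CPM in replicate 2, against 162 to 255 CPM in β-cells, a log2 ratio of 2.58 (2.03 to 3.32). *Luc7l2*, a component of the U1 splicing particle, had a ratio of 2.56, *Ccnl2*, a cyclin of nuclear speckles, of 2.55, and *Nktr*, a large cyclophilin-related protein, of 2.37. All 3 were higher in 8 of 8 libraries. *Mlxipl*, which encodes the glucose-responsive factor ChREBP, had a ratio of 2.48 in 7 of 8 libraries, with 0 CPM at the lowest and 1191 CPM at the highest. *Nlrp6* had no UMI in the 198 barcodes.

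Levels of these mRNAs varied among libraries, and splicing factors were not equal. *Pnisr* had 1446, 1093, 779 and 1469 CPM in replicate 1 but 390, 380, 312 and 120 CPM in replicate 2. The difference between replicates was larger than that between conditions for this gene. The kinases *Clk1* and *Clk4*, which phosphorylate splicing factors, had ratios of 1.94 and 2.01, and the lowest in the list were *Mat2a*, the methionine adenosyltransferase (1.27), and *Tia1*, an RNA-binding protein of stress granules (1.13). Outside the lists, *Eml5* (2.76), *Rsrp1* (2.74), *AC149090.1* (2.67) and *Gm45486* (2.58) were among the 10 genes with the highest ratios.

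At the other end stood short cytoplasmic mRNAs. *Chchd10*, a mitochondrial protein of cristae, had a log2 ratio of -2.55, with 0 to 85.1 CPM against 209 to 404 CPM in β-cells, and the secreted factor *Nenf* had -2.13. *Gapdh*, the glycolytic enzyme, had 85.1 to 624 CPM against 722 to 1784 CPM and a ratio of -1.88. The translocon subunits *Sec61g* and *Sec61b* had -1.77 and -1.74, *Guk1* -1.78, *Mien1* -1.81 and the ribosomal protein *Rps4x* -1.93. *Ins1* and *Ins2* both had -1.81, with *Ins2* at 47779 to 119848 CPM against 248638 to 288580 CPM, which the insulin limit of β-cells favours. *Iapp*, which encodes the amyloid peptide co-secreted with insulin and was not in the rule, had -1.65. Of 78 measurable ribosomal protein genes, 37 were lower in all 8 libraries and none was higher in all 8, with a median of -1.34. Against low-*Malat1* barcodes 64 of 78 were lower in all 8, with a median of -1.86, where 312 of all 4284 genes were. At 500 UMIs, *Rpl41* was found in 19.7% of Malat1-rich barcodes, 55.2% of β-cells and 69.5% of low-*Malat1* barcodes. These shares pool libraries, and low-*Malat1* barcodes came mostly from replicate 2. Over single libraries the shares were 7.14 to 42.9%, 47.4 to 71.1% and 43.1 to 72.6% in the same order. Low-*Malat1* barcodes had 43.1 to 60% in replicate 1 and 69.3 to 72.6% in replicate 2. Within each library the share was lowest in Malat1-rich barcodes.

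Secretory granule genes lay between these groups. The 10 listed had a median log2 ratio of -0.72 against β-cells, with none higher or lower in all 8 libraries, and of 0.21 against low-*Malat1* barcodes. *Chga*, a granule matrix protein, had 644 to 2703 CPM against 2634 to 5145 CPM (ratio -1.12), *Cpe*, the carboxypeptidase of prohormone processing, had -1.54, and *Pcsk2*, the prohormone convertase, had 0.06. Islet transcription factors did not move as a group (median 0.12, 1 of 10 higher and 1 lower in all 8 libraries). *Pax6* was the gene higher in all 8, with 510, 414, 915 and 1000 CPM in replicate 1 and 558, 506, 416 and 599 CPM in replicate 2, against 62.9 to 255 CPM in β-cells (ratio 1.57), and *Mafa*, the activator of insulin transcription, was lower in all 8 (-0.70). The 13 mRNAs of the mitochondrial genome had a median of 0.06 against β-cells and 1.08 against low-*Malat1* barcodes, within the limit of 10% set by the rule.

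Genes with long transcripts were higher and genes with short transcripts lower. The median log2 ratio against β-cells was -0.97 for 215 genes with a longest annotated transcript under 1 kb, -0.37 for 556 genes of 1 to 2 kb, 0.39 for 1410 genes of 2 to 4 kb, 0.67 for 1094 genes of 4 to 6 kb, 0.83 for 754 genes of 6 to 10 kb and 1.10 for 191 genes of 10 kb or more. The share of genes higher in all 8 libraries went from 0.465% in the shortest bin to 35.6% in the longest, and the share lower in all 8 from 35.3% to 0%. The slope was nearly the same against low-*Malat1* barcodes, from -1.20 to 1.17. Genes with a mean of at least 200 CPM over both classes, a limit chosen after seeing the data, gave -1.23 in the shortest and 1.70 in the longest bin. Across 4220 genes, Spearman's rho between transcript length and ratio was 0.570, and 0.284 to 0.518 in single libraries. Genes are not independent replicates, and transcript length goes with gene span (rho with the ratio 0.465).

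**Figure D3:**
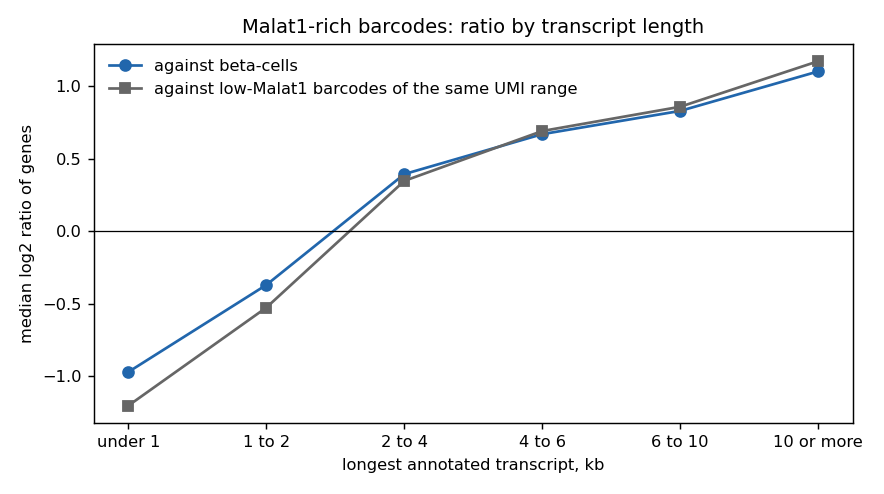
Median log2 ratio of genes (y axis) in Malat1-rich barcodes against β-cells (blue circles) and against low-*Malat1* barcodes (grey squares) by longest annotated transcript (x axis, kb; 215, 556, 1410, 1094, 754 and 191 genes from left to right). Both lines rise at every step, from -0.97 to 1.10 against β-cells and from -1.20 to 1.17 against low-*Malat1* barcodes.

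Neither the number nor the makeup of these barcodes was shown to differ with cytokines. The 4 libraries with cytokines were set against the 4 without in an exact permutation test (two-sided, 70 splits, smallest possible p 0.0286). Malat1-rich barcodes were 1.63% ± 0.686 (SD, n = 4) of barcodes that passed the gene and mitochondrial limits with cytokines and 1.74% ± 1.43 without (exact permutation p = 0.914). The difference was smaller than the spread between libraries. Insulin took 9.83% ± 3.8 of the UMIs other than *Malat1* with cytokines and 10.9% ± 1.55 without (exact permutation p = 0.657), and the nuclear long noncoding RNAs took 1.46% ± 0.547 and 1.46% ± 0.729 (exact permutation p = 1). Over all 6 measures compared, p was 0.457 or more and 1 after Benjamini-Hochberg adjustment. A measure that differed alone could not pass after this adjustment, even at the smallest possible p. Within replicate 1 the share of barcodes was 0.790% and 3.87% without cytokines and 1.94% and 2.42% with them, and within replicate 2 it was 1.13% and 1.19% without and 1.25% and 0.894% with them. In replicate 1 the values with cytokines lay between the other 2, so the replicates gave no common direction. With *Malat1* at 10% or more, insulin took 5.88% ± 1.49 with cytokines and 12.2% ± 1.95 without (exact permutation p = 0.0286, the smallest possible, and 0.171 after adjustment over the 6 measures).

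Genes induced by interferon and IL-1 were found in these barcodes as in the rest of the library. Of 21 such genes listed, at least 1 UMI was found in 28 of 28 Malat1-rich barcodes with cytokines and 30 of 30 with cytokines and NMMA in replicate 1, and in 13 of 14 and 11 of 12 in replicate 2. In untreated islets the numbers were 2 of 18 and 2 of 22, and with NMMA alone 12 of 56 and 2 of 18. The libraries with cytokines thus lay at 91.7% or more and those without at 21.4% or less. Low-*Malat1* barcodes had 90.2 to 98.8% with cytokines and 17.3 to 24.1% without, so a UMI of these genes did not distinguish the classes, and the part of free RNA in it was not tested. Median UMIs per barcode were 740 to 1236.5 in the Malat1-rich and 589 to 1081 in the low-*Malat1* class.

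**Figure D4:**
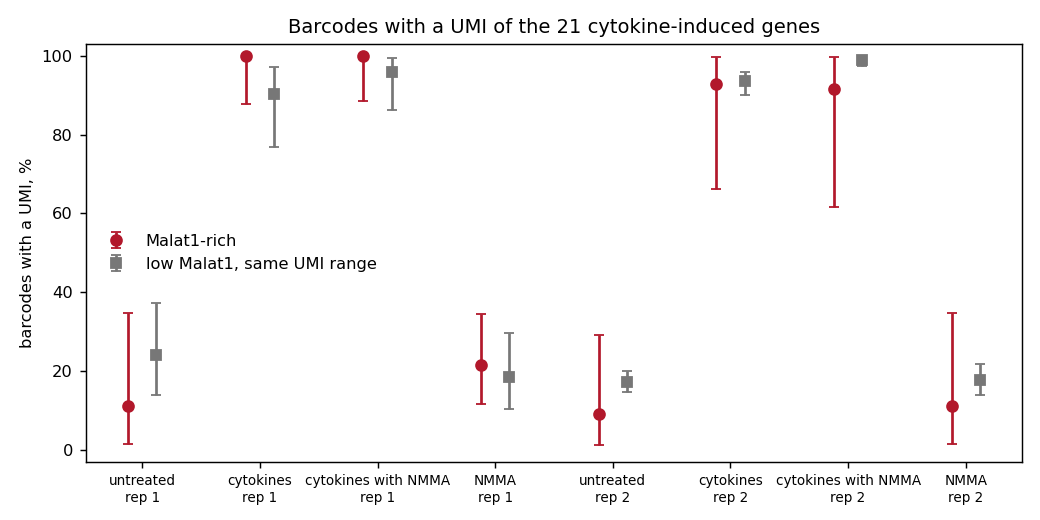
Share of Malat1-rich (red circles) and low-*Malat1* (grey squares) barcodes with at least 1 UMI of 21 cytokine-induced genes (y axis, %) in each library (x axis), with 95% exact binomial intervals that cover counting error only. In both classes the 4 libraries with cytokines lie at 90.2% or more and the 4 without at 24.1% or less.

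UMIs summed per library were tested with edgeR (quasi-likelihood test, Benjamini-Hochberg adjustment over the genes tested), with 2 libraries per condition and 1 estimate of the spread from all 8. Sums were 9620 to 48998 UMIs other than *Malat1* per library, and 270 genes passed the filter on low counts. With cytokines 12 of 270 genes differed from untreated (4.44% of genes tested), 11 of them higher (4.07%) and 1 lower (0.370%). With cytokines and NMMA 11 of 270 did (4.07%), 10 higher (3.70%) and 1 lower (0.370%). These comparisons share their untreated libraries, and 10 genes were called in both. Of the 21 cytokine-induced genes, 9 passed the filter and 7 were called higher with cytokines, with none lower. A gene that is absent in untreated islets could pass only through the conditions in which it was high, so these numbers describe the genes and do not weigh the list. All 21 were tested in β-cells, where 43.2% of 13720 genes were called (22.5% higher and 20.7% lower), and all 21 were called higher. Scaled by total UMIs, 1919 genes were called higher and 4019 lower in β-cells, in place of 3087 and 2845, and the median log2 change of all genes was -0.25 in place of -0.0039. With cytokines and NMMA, 21.2% of genes were called in β-cells (12.3% higher and 8.88% lower).

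The guanylate-binding proteins, GTPases induced by interferon that act against intracellular pathogens, made up 5 of the 11 genes called higher with cytokines. *Gbp4* had 93 UMIs in replicate 1 and 13 in replicate 2 with cytokines, 75 and 13 after both agents, 0 and 1 after NMMA alone, and none in untreated islets. This was at least 24.8-fold higher with cytokines and at least 22.3-fold higher with cytokines and NMMA than untreated, where the floor for absence was 3 UMIs over the untreated group (edgeR adjusted p = 0.000333 with cytokines). *Gbp8* had 37 and 9 UMIs with cytokines and none untreated (at least 10.8-fold, adjusted p = 0.00174), *Gbp9* had 33 and 3 (at least 8.42-fold, 0.0127) and *Gbp6* had 16 and 11 (at least 6.31-fold). *Gbp7* had 37 and 6 UMIs with cytokines and 63 and 12 with cytokines and NMMA, against 1 and 0 untreated, a ratio of 30.2 with cytokines (95% counting interval 5.13 to 1219; edgeR adjusted p = 0.0102). Both libraries with cytokines lay above both untreated libraries for each of the 5, which were chosen as called for this difference, so the order adds no support. Of the 13 *Gbp4* UMIs with cytokines in replicate 2, 11 lay in 1 barcode, whereas in replicate 1 18 of 28 barcodes held the transcript.

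Immunity-related GTPases were also called. *Iigp1* had 52 and 13 UMIs with cytokines and 52 and 19 with cytokines and NMMA, and none in the other 4 libraries, at least 15.2-fold and 18.0-fold higher (edgeR adjusted p = 0.000451 with cytokines). *Irgm1* had 21 and 11 UMIs with cytokines (at least 7.48-fold, edgeR adjusted p = 0.0117), but 25 and 0 with cytokines and NMMA, so 1 library held all UMIs of the second condition. *Parp14*, a mono-ADP-ribosyltransferase of the interferon response, had 36 and 8 UMIs with cytokines, 48 and 15 with both agents, 7 and 0 with NMMA and none untreated (at least 10.3-fold with cytokines, edgeR adjusted p = 0.00130). *F830016B08Rik*, an interferon-inducible GTPase-like gene, had 26 and 2 UMIs with cytokines (at least 6.55-fold, edgeR adjusted p = 0.0246). In replicate 1, 16 of the 26 UMIs lay in 1 barcode, and 4 of 28 barcodes held the transcript. *Cxcl10*, a chemokine that attracts T cells, was called only with cytokines and NMMA, at 26 and 10 UMIs against none untreated (at least 9.10-fold, edgeR adjusted p = 0.00617), and had 7 and 7 UMIs with cytokines alone. No difference between the 2 cytokine conditions was called for it.

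The remaining genes called were not of the listed interferon program. *Nupr1*, a stress-inducible chromatin regulator, had 30 and 22 UMIs with cytokines against 0 and 1 untreated (ratio 36.5, counting interval 6.26 to 1468, edgeR adjusted p = 0.00328), and 21 and 2 with NMMA alone. With cytokines, 17 of the 22 UMIs in replicate 2 lay in 1 barcode, and 12 of the 30 in replicate 1 lay in another. *Vmp1*, a membrane protein of autophagosome formation, had 41 and 18 UMIs against 1 and 1 (ratio 20.7, 5.48 to 175; edgeR adjusted p = 0.0102). The decrease in *Cst3*, which encodes the protease inhibitor cystatin C, rested on 1 barcode. All 107 of its UMIs in untreated islets of replicate 1 lay in that barcode, and the other libraries had 4 to 20 UMIs each. With the replicate as a block it was not called (edgeR adjusted p = 0.366 with cytokines and 0.522 with both agents). It was also not called when the 6 barcodes with at least 3 UMIs of endothelial, macrophage, mesenchymal or acinar markers were left out, a choice made after seeing the data, although all 6 came from other libraries. The calls then numbered 10 and 8, all among those above.

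**Figure D5:**
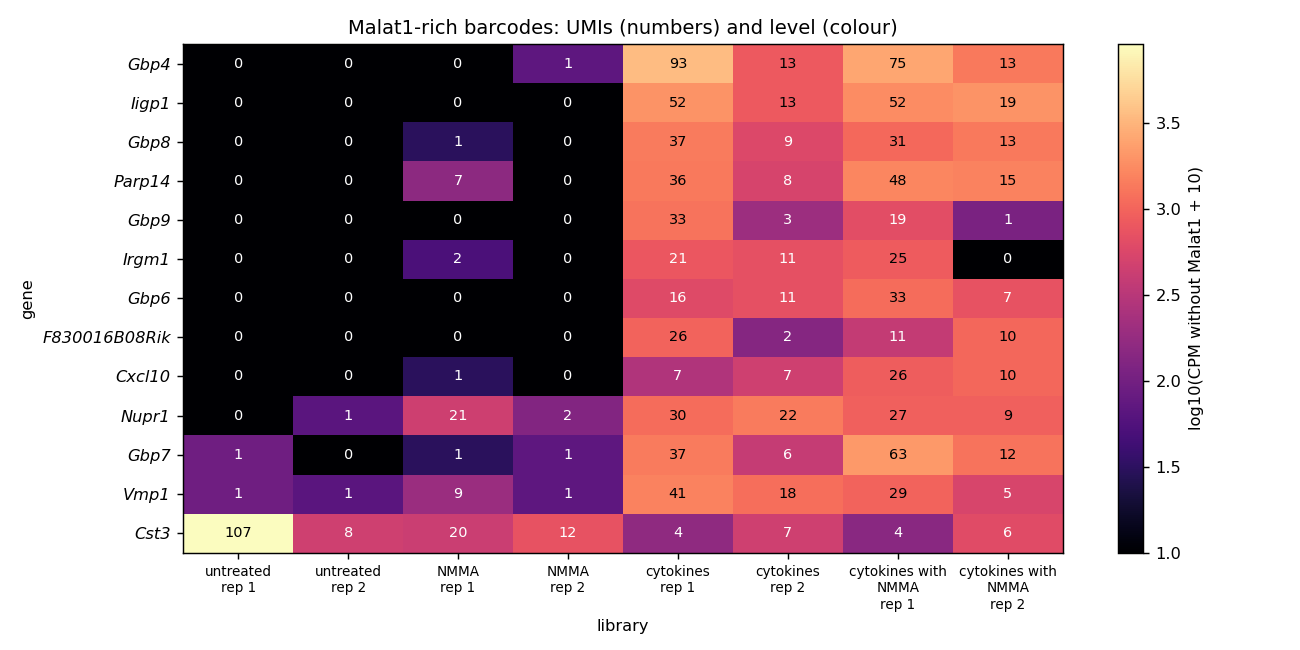
UMIs (numbers) and level (colour, log10 of CPM without *Malat1* plus 10) of the 13 genes called in either cytokine comparison in Malat1-rich barcodes of the 8 libraries (x axis), sorted by fitted change (y axis). The 12 genes called higher have 0 to 21 UMIs in each library without cytokines, and *Cst3* has 107 UMIs in 1 untreated library.

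*Nos2*, which encodes the inducible nitric oxide synthase, was too rare in these sums to be tested. It had 13 UMIs with cytokines, 16 with cytokines and NMMA and none in untreated islets, at least 3.04-fold and 4.05-fold higher. Pooled over the libraries of a condition, some induced genes took more of the RNA of Malat1-rich barcodes than of β-cells, such as *Gbp4* with 2504 against 304 CPM, *Iigp1* with 1535 against 278 CPM and *F830016B08Rik* with 661 against 40.7 CPM with cytokines. Others took less, such as *Gbp2* with 449 against 1013 CPM and *Isg20* with 118 against 369 CPM, or similar amounts, such as *Gbp3* with 378 against 398 CPM. *Nos2* had 307 against 159 CPM from 13 UMIs. Of the 21 listed genes, all but *Isg20*, *Gbp2* and *Gbp3* had a higher pooled level than in β-cells with cytokines, several of them from few UMIs. With cytokines and NMMA, *Nos2* (409 against 507 CPM), *Icam1*, *Isg15*, *Isg20*, *Defb1*, *Cxcl10* (920 against 1281 CPM), *Igtp* and *Gbp2* were lower than in β-cells, and the others higher. These levels were not tested.

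The calls depended on the untreated libraries. Without untreated replicate 1 no gene was called in either comparison (26 and 30 at an unadjusted p below 0.05), and without untreated replicate 2 only *Cst3* was called in each. DESeq2 called 5 and 7 genes, all of them among those called by edgeR.

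NMMA was used to find changes that need nitric oxide. Comparing cytokines and NMMA with cytokines, edgeR called 0 of 270 genes (0%), with 6 at an unadjusted p below 0.05, and DESeq2 called 0. The smallest p was that of *Hsph1*, a heat shock protein of the Hsp110 family, with a log2 change of -2.28 (SE 0.94, unadjusted p = 0.0161 and adjusted p = 0.996 by edgeR). Comparing NMMA alone with untreated islets, edgeR called 0 of 270 (0%), with 5 at an unadjusted p below 0.05, and DESeq2 called 0. Here *Cst3* had the smallest p and rested on the same barcode as above. These numbers do not show that no change needs nitric oxide. Against untreated islets, the median log2 change of the 6 testable stress response genes was 0.43 with cytokines. It was -1.57 with both agents and -0.89 with NMMA alone, and no gene of the 6 was called. All 6, heat shock genes among them, had lower fitted levels with cytokines and NMMA than with cytokines (log2 change -2.28 to -0.78, median -1.91, beside 0.01 over all 270 genes). Of these, 2 had an unadjusted p below 0.05 and none passed after adjustment by edgeR. Without cytokines and NMMA replicate 1, 7 genes were called in this comparison, and 4 without the filter on low counts.

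No gene of the nuclear RNA lists was called in any comparison of conditions within Malat1-rich barcodes. *Neat1*, *Meg3* and *Kcnq1ot1* were the 3 nuclear long noncoding RNAs that could be tested. *Neat1* had a log2 change of 0.85 (SE 0.62) with cytokines in Malat1-rich barcodes and 0.88 (SE 0.17) in β-cells, where it was called (edgeR adjusted p = 0.00449). A difference between the classes was not called (0.19, SE 0.73, edgeR adjusted p = 1). *Kcnq1ot1* had -1.23 (SE 0.86) in Malat1-rich barcodes and fell in β-cells by 0.65 (SE 0.16, edgeR adjusted p = 0.0129), and *Meg3* had -0.20 (SE 0.58) and -0.05 (SE 0.22), called in neither. Of the 16 mRNAs of the detained-intron list testable in Malat1-rich barcodes none was called with cytokines. Their median log2 change was -0.17, beside 0.01 over all 270 genes. In β-cells with cytokines, 4 of 19 of this list were called higher and 4 lower. Of 8 nuclear long noncoding RNAs tested there, 1 was called higher and 4 lower. Over all genes in β-cells, 22.5% were called higher and 20.7% lower. The SE of each of these 3 RNAs was larger in Malat1-rich barcodes than in β-cells.

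Among the other lists, 51 ribosomal protein genes were testable and none was called with cytokines (median log2 change -0.25). Of all 270 genes tested, 4.07% were called higher. In β-cells 62 of 78 were called higher (median 0.67), where 22.5% of all 13720 genes were. In the test of the difference between classes none of 78 was called, and 2 had an unadjusted p below 0.05. *Pax6*, the only identity factor that could be tested, had a log2 change of -0.19 (SE 0.92) in Malat1-rich barcodes and fell by 1.31 (SE 0.17, edgeR adjusted p = 0.000842) in β-cells, and the difference of 1.37 (SE 0.88) was not called. None of 7 granule genes, 10 mitochondrial mRNAs and 6 stress response genes was called in Malat1-rich barcodes. *Hspa1a*, the inducible heat shock protein, had 3062, 3090, 576 and 40.8 CPM in replicate 1 and 725, 127, 624 and 1917 CPM in replicate 2, in the order untreated, cytokines, both agents and NMMA, against 54.1 to 432 CPM in β-cells. The order of the conditions was not shared by the replicates.

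Over all genes, the effect of cytokines was not shown to differ between Malat1-rich barcodes and β-cells. The interaction of class and condition was tested on 12610 genes with library as a block, and edgeR called 0 (0%) with cytokines, with 141 at an unadjusted p below 0.05. With cytokines and NMMA it called 1 gene (0.00793%), with 92 at an unadjusted p below 0.05. That gene was *Mgp*, which encodes the matrix Gla protein of mesenchymal and endothelial cells, and all 20 of its UMIs in the condition lay in 1 barcode of replicate 2. When p was adjusted over the 270 genes that Malat1-rich barcodes could be tested for, a choice made after seeing the data, 0 and 0 were called (16 and 11 at an unadjusted p below 0.05). DESeq2 was not run for the interaction.

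Promoters of the genes called in the cytokine comparisons, 12 higher and *Cst3* lower, were searched for the sites of the factors downstream of IFN-γ. Of the 13 genes called in either comparison, 6 had a promoter in the RefSeq table used (GRCm38.p6, a fixed window around the annotated start). The searched motifs were the interferon-gamma activated site TTCNNNGAA, which reads alike on both strands, and the core of the interferon-stimulated response element GAAANNGAAA on either strand. Matches are in capitals, and the 3 promoters with the response element core are shown.
Gbp7, chr3:142530086-142530385, plus strand: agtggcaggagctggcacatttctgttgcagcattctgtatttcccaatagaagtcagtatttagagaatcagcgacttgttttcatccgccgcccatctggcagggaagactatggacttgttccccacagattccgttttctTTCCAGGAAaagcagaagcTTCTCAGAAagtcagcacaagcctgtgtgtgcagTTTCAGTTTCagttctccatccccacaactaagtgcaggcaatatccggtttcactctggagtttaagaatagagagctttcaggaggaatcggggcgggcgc
Irgm1, chr11:48871371-48871670, minus strand: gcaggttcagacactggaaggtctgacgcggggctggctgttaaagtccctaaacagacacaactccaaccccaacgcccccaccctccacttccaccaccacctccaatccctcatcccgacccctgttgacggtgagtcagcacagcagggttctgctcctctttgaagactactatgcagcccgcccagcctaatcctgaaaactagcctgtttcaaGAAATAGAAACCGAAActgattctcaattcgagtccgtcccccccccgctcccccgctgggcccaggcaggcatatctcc
Cxcl10, chr5:92348840-92349139, minus strand: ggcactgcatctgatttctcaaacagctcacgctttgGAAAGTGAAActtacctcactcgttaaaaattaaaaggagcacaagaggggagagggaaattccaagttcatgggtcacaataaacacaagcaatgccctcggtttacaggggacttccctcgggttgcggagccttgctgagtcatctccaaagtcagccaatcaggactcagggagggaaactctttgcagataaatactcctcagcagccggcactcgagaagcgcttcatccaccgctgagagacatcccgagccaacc
The response element core was in 3 of the 6 promoters, with 2 overlapping matches in *Irgm1*, and in 3.44% of 32851 promoters of the same length. The activated site was in 2, *Gbp7* and *Nupr1*, and in 8.30% of promoters. Either motif was in 4 of 6 and in 11.3% of promoters, while *Vmp1* and *Cst3* had neither in this window. A match describes letters of the reference and not binding.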

How the data were processed

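The values the authors deposited are unnormalized UMI counts of genes in single barcodes, with 1 matrix per library. The file headers name Cell Ranger 3.0.0 for replicate 1 and 6.0.0 for replicate 2, and the submitters' processing notes name mm10. The labels and the study's methods name different versions of the 3′ kit. The gene lists hold 31053 and 32285 genes, of which 30406 shared gene IDs were used (99.7 to 100.0% of UMIs).

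Barcodes were chosen by the limits given above. The classes, gene lists and tests were chosen with earlier results of these data known. *Malat1* was left out of all library sums and tests. UMI counts were summed per class and library and tested with edgeR 4.0.16 in R 4.3.3 (filterByExpr, TMM scaling, robust quasi-likelihood test, Benjamini-Hochberg threshold 0.05), with DESeq2 1.42.0 as an alternative. Other values were computed with Python 3.11.15, numpy 2.4.6, scipy 1.17.1 and pandas 2.3.3. The code was tested on simulated data. Libraries total 26549922 to 50731370 UMIs, and 1 UMI of a Malat1-rich sum equals 20.4 to 104 CPM. With 2 libraries per condition, p-values measure the spread between these libraries. Same-numbered libraries came from 1 islet pool, and their deviations from the condition means correlated over 6 pairs of conditions. In Malat1-rich sums r was 0.245 to 0.444, and in β-cell sums 0.701 to 0.863. The tests within a class had no replicate block, except where a block is named. Doublets were not called in any class. Named genes were those of the lists, up to 5 called genes of each direction and comparison by size of change with the same direction in both replicates (all called genes are given here, those beyond that limit chosen after their values were seen), the 5 of smallest adjusted p in each interaction and the 10 highest and 10 lowest against β-cells. Alternatives changed the scaling, filter, tool, replicate block, *Malat1* and UMI limits, insulin content, pseudocount and libraries used. The adenine runs of 4 further transcripts are not reported here.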

Additional observations from a re-analysis of the deposited data

Results flagged for a closer look

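In the 4 libraries without cytokines, Malat1-rich barcodes were 3.87% of the barcodes that passed the gene and mitochondrial limits in NMMA-treated islets of replicate 1, and the nearest other library had 1.19%. The gap was 0.871 of the range of the 4 libraries, above Dixon's critical value of 0.83. Of 12 such groups compared 1 stood out in this way. By chance about 1 in 20 single groups passes this value, so 1 among 12 can arise by chance. Without this library the difference between libraries with and without cytokines was 0.59 percentage points in place of -0.11, and it was not past the threshold in either case.

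*Mgp* had a larger response to cytokines with NMMA in Malat1-rich barcodes than in β-cells (edgeR interaction test, adjusted p = 2.09e-05). It had no UMI in Malat1-rich barcodes of untreated islets, and 0 and 20 UMIs with cytokines and NMMA, all 20 in 1 barcode that came from replicate 2. All 16 UMIs of *F3*, the tissue factor gene, in that library also lay in 1 barcode. In β-cells *Mgp* fell by 3.45 on the log2 scale (SE 0.61, edgeR adjusted p = 0.00896). Without that library the interaction of *Mgp* was 2.95 and not called (edgeR adjusted p = 1), and without untreated replicate 2 it was 16.68 and not called (edgeR adjusted p = 0.137). Nor was it called with scaling by total UMIs (edgeR adjusted p = 0.0930) or with *Malat1* at 10% or more.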

How the results depend on the processing

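Most of the counts in Malat1-rich barcodes moved with the choice of barcodes and tool. For cytokines and for cytokines with NMMA against untreated islets (12 and 11 genes), 0 and 0 were called with 1000 to 3000 UMIs, 0 and 0 with *Malat1* at 10% or more, 2 and 2 with insulin at 10% or more, 5 and 7 with DESeq2, and 5 with cytokines without the filter on low counts (11 with both agents). Fewer genes were testable in the smaller sets of barcodes (153, 93 and 32). Without the filter, 4 genes were called between the cytokine conditions and 1 with NMMA. With the replicate as a block, 14 and 13 genes were called (11 and 10 of them shared with the unblocked fit), and 0 and 0 in the other comparisons. In β-cells the block gave 8420 genes with cytokines in place of 5932, and 5664 with cytokines and NMMA in place of 2903. In the block *Cst3* was not called. Exact permutation tests of shares within replicates gave p of 0.222 or more. Their smallest possible p was 0.0556, so they could not call any measure. The interaction with cytokines and NMMA (1 gene) gave 2 with 1000 to 3000 UMIs and 0 with *Malat1* at 10% or more, with scaling by total UMIs and over the 270 genes only. Leaving out each library gave 0 to 17 genes in both cytokine comparisons, 0 to 7 between the cytokine conditions, 0 to 1 with NMMA, 3647 to 5580 and 1233 to 2923 in β-cells, and 0 to 3 and 1 to 3 for the interactions. The lowest, 0 and 0, came without untreated replicate 1, and 1 and 1 without untreated replicate 2, while without cytokines replicate 1 8 genes were called and without cytokines and NMMA replicate 1 7 between the cytokine conditions.

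The differences of shares between libraries with and without cytokines, none past the threshold after adjustment, turned to 0.286 (barcodes), 1.88 (insulin) and -0.0132 (mitochondrial) percentage points with 1000 to 3000 UMIs and to -0.0856 (UMI range) with *Malat1* at 10% or more. Leaving out each library gave -0.43 to 0.59 and -4.04 to 10.99 for the shares of barcodes, -2.74 to 0.16 for insulin, 0.20 to 1.35 for mitochondrial, -2.32 to -0.08 for ribosomal protein and -0.25 to 0.28 for nuclear long noncoding RNA. Against β-cells, genes higher in every library numbered 280 with *Malat1* at 10% or more, 66 with 1000 to 3000 UMIs and 23 with insulin at 10% or more (528 to 727 leaving out a library), and genes lower in every library 572 over UMIs without insulin and mitochondrial genes and 353 against low-*Malat1* barcodes (243 to 308). Low-*Malat1* barcodes in place of β-cells turned the ratios of the ribosomal RNA-like list (-0.37), *Gm42418* (-0.32) and granule genes (0.21). The small median of identity factors turned to -0.29, -0.046, -0.44 and -0.44 without insulin and mitochondrial UMIs, with *Malat1* at 10%, with 1000 to 3000 UMIs and with insulin at 10%, and ranged from -0.0043 to 0.25 without a library. That of mitochondrial mRNAs turned to -0.36 with insulin at 10% and ranged from -0.12 to 0.20 without a library. *AW112010* turned to 4.80 and 6.26 with *Malat1* at 10% and ranged from -8.00 to 6.11 and from -16.99 to 6.90 without a library, *Cd74* from -16.14 to 5.38 and *F3* from -0.14 to 15.60 with both agents, and *Irgm1* with both agents from 0 to 7.28. *Meg3*, *Neat1*, *Kcnq1ot1*, *Gm26917* and the detained-intron list kept the sign of their ratio to β-cells under every alternative run. Causes were not tested. Depth also limits the class, whose sums hold 9620 to 48998 UMIs other than *Malat1* per library.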

Other observations

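The genes with the smallest p for a difference between the classes included several that are not β-cell genes. With cytokines, *AW112010*, an interferon-induced transcript, had 5 and 0 UMIs in Malat1-rich barcodes of untreated islets (replicates 1 and 2) and 2 in each library with cytokines, and the interaction was -6.48 on the log2 scale (SE 1.47, edgeR adjusted p = 0.136). *Cd74*, the invariant chain of antigen presentation, had 6 UMIs in untreated islets of replicate 1 and none with cytokines (edgeR adjusted p = 0.178). *Timp3*, an inhibitor of matrix proteases, had 1 and 8 UMIs untreated and none with cytokines, and *Rbp4*, a marker of δ-cells here, had 0 and 1 untreated and 8 and 6 with cytokines. None of these passed the threshold, and all 5 UMIs of *AW112010* and all 6 of *Cd74* in untreated replicate 1 lay in 1 barcode each.

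Glucagon transcripts varied widely among the libraries of Malat1-rich barcodes. *Gcg* had 510, 7724, 1457 and 4000 CPM in replicate 1 and 6022, 6141, 2495 and 23121 CPM in replicate 2, in the order untreated, cytokines, both agents and NMMA. At 500 UMIs it was found in 38.9% of Malat1-rich barcodes, 13.7% of β-cells and 82.5% of low-*Malat1* barcodes, most of which came from replicate 2. In replicate 1 it was found in 29.3 to 44% of low-*Malat1* barcodes. With cytokines in replicate 1 it was found in 31.7% of these against 53.6% of Malat1-rich barcodes. In every other library it was found less often in Malat1-rich barcodes. In replicate 1 these had 16.7% against 29.3% untreated, 40% against 44% with both agents and 19.6% against 32.9% with NMMA. Its level was thus highest with NMMA in replicate 2, and its log2 change with NMMA against untreated islets was 2.14 (SE 0.81, unadjusted p = 0.0135 and adjusted p = 1 by edgeR).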
